A study of Mus musculus with 16 samples.

Results

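Solute carriers are the membrane proteins that move sugars, amino acids, nucleosides, ions, metals and vitamins across the plasma membrane and the membranes of organelles. Their genes carry the symbol Slc followed by a family number, and 168 of them were described here for the RNA that came down with Sox2 in mouse embryonic stem cells (mESC). They were chosen on the deposited counts, as the protein-coding genes of that name with a mean of 100 or more unique molecular identifiers (UMIs) over the 8 input libraries. These were 168 of 371 protein-coding Slc genes in a table of 53379 genes, and they belong to 40 families, of which Slc25 with 33 genes and Slc35 with 18 were the largest. Another 203 Slc genes lay under that floor, 161 of them with enough UMIs to be tested. Because the floor acts on the inputs, a gene with low inputs and a higher IP can miss it, and the same floor over the 8 IP libraries took in 180 genes, the 168 among them.

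The male mESC were cultured with serum, LIF and the inhibitors PD0325901 and CHIR99021, which hold the cells in the pluripotent state. Cells were crosslinked with UV light (UV-RIP), which links protein to RNA in direct contact, or with formaldehyde (fRIP), which also links RNA to proteins through other proteins. Sox2, an HMG-box transcription factor of pluripotent cells, was then immunoprecipitated from sonicated lysate. The 16 libraries fell into groups of 4, the Sox2 IP and the input of UV-RIP and the Sox2 IP and the input of fRIP, with replicates numbered 3 to 6 in each, and each IP has its input from the same lysate. No library from a control antibody or from cells without Sox2 was analysed here, and the plates of both crosslinkers were different, so the crosslinker and the plates cannot be told apart.

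In a stem cell, solute carriers supply glucose and amino acids for growth, export lactate and protons, and exchange nucleotides and metabolites between cytosol and mitochondria. Most members of the SLC25 family sit in the inner mitochondrial membrane, the SLC35 family carries nucleotide sugars into the Golgi and endoplasmic reticulum, and the SLC30 and SLC39 families move zinc out of and into the cytosol. UMIs were counted over the whole gene body, so both unspliced and spliced RNA contribute to a gene's level.

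The libraries held between 12456298 and 21211537 UMIs on genes, and the solute carrier genes took between 1.04% and 1.17% of them. Of 9 stem cell markers 8 were above 1 CPM, the UMIs of a gene scaled to a library total of 1000000, in every library, whereas Sox2 itself was at 0 throughout. Sox2 lies inside the annotated gene Sox2ot, and reads in overlapping gene bodies may not have been assigned, so the count cannot show the target's own RNA. The summed markers of fibroblasts, of endoderm and of neural cells were each at 8.8 CPM or less in every library. In each group only 1 of the 4 neural markers was above 0, so the low neural sum cannot show that neural RNA was absent. A ribosomal-RNA-like locus, Gm26917, took 18.35 to 22.34% of UMIs in the UV-RIP IP but 12.03 to 12.29% in its input, and its share lowers the CPM of every other gene there. The fRIP input of replicate 4 stood apart, with 2.814% of its UMIs on the misc_RNA class, which in no other library exceeded 0.62%. The fRIP IP of replicate 5 stood apart as well, with 12.43% of its UMIs on Gm26917 against 5.44 to 6.81% in the other fRIP IPs. The chi-square per degree of freedom against the rest of the group was 41.04 to 51.94 for the former and 38.34 to 60.01 for the latter. Without replicate 5, 17 solute carrier genes were enriched in fRIP and 16 depleted, and without replicate 4, 10 and 14, in place of the 14 and 17 given below.

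Per kilobase of gene body, the highest mean levels over the 8 inputs were those of Slc25a5, which exchanges ADP for ATP across the inner mitochondrial membrane, at 27.8 CPM per kb, and of Slc25a3, the mitochondrial phosphate carrier, at 26.4 CPM per kb. The phosphate importer Slc20a1 followed at 23.5, the mitochondrial carrier Slc25a39 at 20.8 and the neutral amino acid carrier Slc38a2 at 18.8 CPM per kb. Other genes cover 47.4% of the Slc20a1 gene body, so its count is uncertain. These levels are a description, since the genes were chosen on the input counts. The genes with the lowest means inside the floor were Slc25a42 at 104.0 UMIs and Slc29a4 and Slc7a8 at 104.125 UMIs each, and just outside it lay Slc31a2 at 96.375 UMIs.

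UV-RIP asks which RNAs Sox2 contacts directly. Genes were called at a fold over 1.5 with an adjusted p under 0.05 (edgeR's quasi-likelihood test, Benjamini-Hochberg adjustment over 22936 genes), and 1 solute carrier gene was enriched in the IP and 4 were depleted, which is 0.595% and 2.38% of the 168 genes. Over all genes tested 0.68% were enriched and 5.53% were depleted. At any fold, 21 solute carrier genes rose (12.5%, against 6.6% of all genes tested) and 67 fell (39.9%, against 29%). Among the 9627 protein-coding genes at the same floor, 12.4% rose and 55.0% fell. The share of solute carrier genes rising was thus close to that of genes at this floor, and the share falling was lower. The 21 rising genes were 12 without the replicate block, 11 with DESeq2 on total UMIs and 10 without replicate 6. The median log2 fold change of the 168 genes, -0.09, compares with -0.17 over all genes tested and -0.18 over the protein-coding genes at the same floor. The ranges of the 4 IP and the 4 input libraries did not overlap for 73 of the 168 genes (43.5%), against 29.9% of all genes tested and 55.7% of the protein-coding genes at the same floor.

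The direction of these small changes rests on the scaling. With TMM in place of total UMIs the median of all genes tested in UV-RIP moved from -0.17 to 0.01 on the log2 scale, and that of the solute carrier genes from -0.09 to 0.09. The number that rose at any fold then became 66 and the number that fell 23 (39.3% and 13.7%, against 30.7% and 28.6% of protein-coding genes at the same floor), and none passed the fold threshold downwards. The enriched gene stayed enriched. UV-RIP changes below the fold threshold are given below on the scale of total UMIs.

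The enriched gene was Slc35c2 (ENSMUSG00000017664.16, chromosome 2 of GRCm38, 165276554 to 165287869, minus strand), a gene of the nucleotide sugar transporter family. In UV-RIP it stood at 27.8, 26.2, 25.3 and 26.8 CPM in the IP libraries of replicates 3 to 6 and at 15.98, 16.8, 16.05 and 20.2 CPM in the inputs. Every IP library was above every input. The log2 fold change was 0.61 (SE 0.07, adjusted p = 1.6e-18), and without replicate 3 it fell to 0.56, under the fold threshold. In fRIP the same RNA was at 20.3, 24.5, 26.02 and 25.7 CPM in the IP and 18.5, 19.7, 21.4 and 20.7 CPM in the input, ranges that overlap, with a log2 fold change of 0.26 (SE 0.09, adjusted p = 0.023). That fRIP test was not passed without replicate 5 or 6, without the replicate block, with DESeq2 on total UMIs or with the GC trend removed, at adjusted p-values of 0.0812, 0.122, 0.0697, 0.0738 and 0.124. The fRIP change minus the UV-RIP change was -0.36 (SE 0.11, adjusted p = 0.017).

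Below the fold threshold the next RNAs to rise in UV-RIP were the glycine transporter Slc6a9, with a log2 fold change of 0.40 (SE 0.10, adjusted p = 2.6e-04), the anion exchanger Slc4a2 at 0.33 (SE 0.07, adjusted p = 6.1e-06) and the fatty acid transport gene Slc27a3 at 0.30 (SE 0.08, adjusted p = 9.8e-04). The lysosomal peptide and histidine carrier Slc15a4, at 0.29, and the reduced folate carrier Slc19a1, at 0.24, followed. All 5 rose in each of the 4 pairs of IP and input, which was a condition for being named here. With DESeq2 on total UMIs Slc6a9 and Slc27a3 did not pass, at adjusted p-values of 0.0546 and 0.0586. Other genes cover 98.1% of the Slc6a9 gene body, 30.7% of Slc19a1 and 14.7% of Slc4a2, so these counts can lack reads that fell in the overlap.

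The most depleted RNA in UV-RIP was that of Slc25a36 (ENSMUSG00000032449.13, chromosome 9 of GRCm38, 97074961 to 97111157, minus strand), a mitochondrial carrier of pyrimidine nucleotides. It stood at 155, 173, 172 and 168 CPM in the IP and 272, 263, 274 and 272 CPM in the input. The IP libraries were all lower than the inputs by a wide margin, and the log2 fold change was -0.69 (SE 0.04, adjusted p = 9.8e-66). The remaining depleted genes were Slc9b1, of the sodium and proton exchangers, at -0.64 (SE 0.07, adjusted p = 5.9e-20), the acetyl-CoA transporter Slc33a1 at -0.64 (SE 0.07, adjusted p = 2.6e-19) and the bicarbonate transporter Slc4a10 at -0.59 (SE 0.06, adjusted p = 6.2e-19). Slc33a1 without replicate 3 and Slc4a10 without replicate 4 dropped under the fold threshold, at -0.55 and -0.51, and Slc4a10 lay just under it with DESeq2 on total UMIs. The amino acid transporter Slc6a15 and the mitochondrial carrier Slc25a14 also fell, by log2 changes of -0.56 and -0.53, short of the threshold. With TMM all 6 remained lower in the IP at an adjusted p below 0.05, with log2 changes between -0.51 and -0.36. Slc25a14 did not pass with DESeq2 at median-of-ratios size factors or with the GC trend removed, at adjusted p-values of 0.102 and 0.235.

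The UV-RIP changes followed the base composition of the coding sequence. Across the 168 genes the Spearman correlation between the log2 fold change and the GC content of the coding sequence was 0.60, and across 9621 protein-coding genes at the same floor it was 0.53. These are correlations across genes measured in the same libraries, not across replicates. Among the 42 genes with the lowest GC content, up to 49.7%, 32 RNAs fell at any fold and 0 rose, and the median was -0.26, or with TMM 14 fell, 3 rose and the median was -0.08. Among the 42 with the highest, from 57.8 to 63.5%, 5 fell and 13 rose, with a median of 0.02, or with TMM 1 fell, 27 rose and the median was 0.20. The 4 depleted genes were all among the 42 lowest. With gene body length the Spearman correlation in UV-RIP was -0.03. After removal of the GC trend over all genes tested, an alternative added after seeing the data, Slc35c2 was at 0.65 and Slc25a36 at -0.38, and none of the 168 genes was past the fold threshold downwards. This removal also moved the median of all genes tested from -0.17 to -0.03, and TMM, without it, left none past that threshold as well.

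The contrast in composition can be read from coding sequence of the genes that rose most and fell most in UV-RIP. The following stretches of 90 bases, each within 1 coding exon on the minus strand or, for Slc9b1, on the plus strand, were taken where the GC content was nearest to that of the whole coding sequence, among genes with at most 10% of their body under other genes. They come from GENCODE vM21 on GRCm38, are read 5′ to 3′ on the RNA strand, and have G and C in capitals.
Slc35c2: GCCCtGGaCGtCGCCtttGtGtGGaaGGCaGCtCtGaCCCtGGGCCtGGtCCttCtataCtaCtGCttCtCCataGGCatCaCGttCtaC
Slc27a3: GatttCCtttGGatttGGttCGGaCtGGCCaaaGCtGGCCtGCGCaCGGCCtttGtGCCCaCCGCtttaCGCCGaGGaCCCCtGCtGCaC
Slc25a36: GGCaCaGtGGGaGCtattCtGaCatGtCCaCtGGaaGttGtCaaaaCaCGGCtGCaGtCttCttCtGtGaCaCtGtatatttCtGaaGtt
Slc9b1: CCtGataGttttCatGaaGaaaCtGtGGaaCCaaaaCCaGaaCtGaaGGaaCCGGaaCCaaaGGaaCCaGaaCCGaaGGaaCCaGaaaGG
The Slc35c2 stretch (chr2:165283267-165283356, minus strand) has 56.7% G and C and the Slc27a3 stretch (chr3:90389215-90389304, minus strand) 61.1%. The Slc25a36 stretch (chr9:97100143-97100232, minus strand) and the Slc9b1 stretch (chr3:135357469-135357558, plus strand) have 45.6% each. Over the whole coding sequence the GC content is 57.1% for Slc35c2, 61.4% for Slc27a3, 45.98% for Slc25a36 and 45.01% for Slc9b1, beside a median of 54.1% over the 168 genes.

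**Figure D1:**
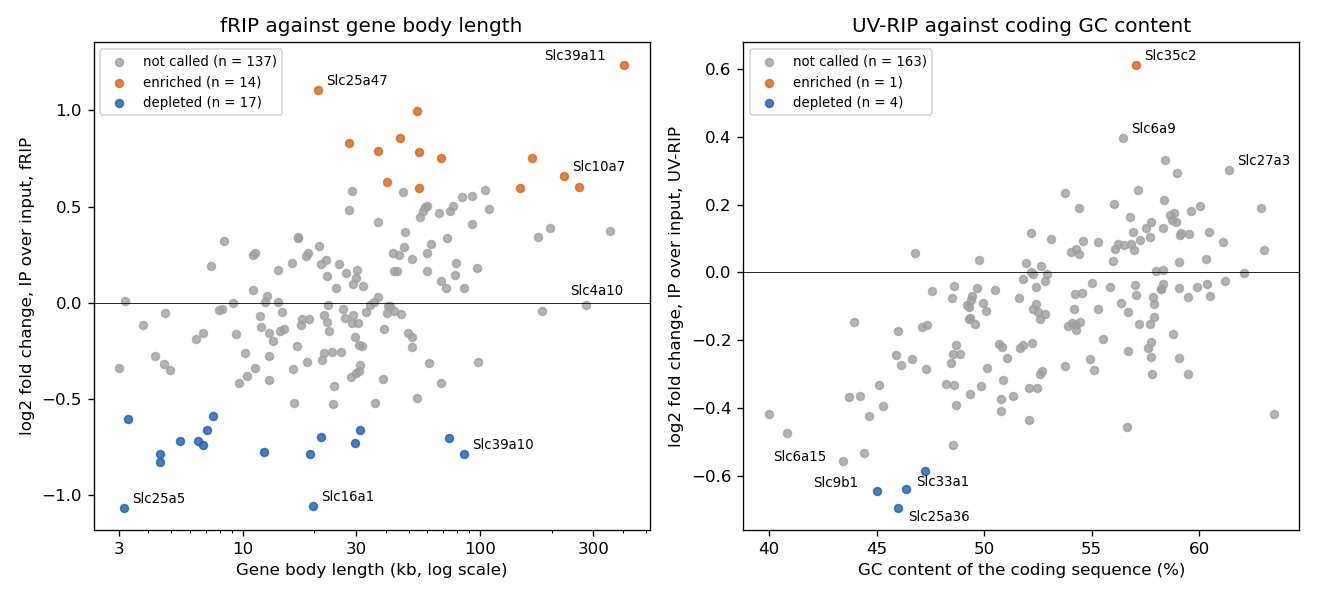
Each point is 1 of 168 solute carrier genes. On the left the log2 fold change of IP over input in fRIP (vertical axis) is plotted against gene body length in kb on a log axis, and on the right the log2 fold change in UV-RIP against the GC content of the coding sequence in percent. Enriched genes are orange and depleted genes blue. In fRIP the points rise with length from Slc25a5 at 3.16 kb to Slc39a11 at 405 kb, and in UV-RIP they rise with GC content.

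In fRIP, which also retains RNA near Sox2 without direct contact, more solute carrier genes passed the thresholds. The IP was enriched for 14 of them (8.33%) and depleted of 17 (10.1%), against 8.8% and 10.7% of all genes tested. With TMM the split was 19 enriched and 15 depleted. At any fold 47 rose (28%, against 17.6% of all genes tested) and 49 fell (29.2%, against 21.9%). Among protein-coding genes at the same floor 27.3% rose and 40.4% fell at any fold, and 10.2% were enriched and 16.4% depleted. The median log2 fold change was -0.03, as over all genes tested. The IP and input ranges did not overlap for 77 genes (45.8%), against 34.5% of all genes tested and 57.6% of the protein-coding genes at the same floor. The spread of the log2 fold changes between genes was wider than in UV-RIP, with a standard deviation of 0.427 against 0.215.

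Slc39a11, a zinc transporter of the SLC39 family (ENSMUSG00000041654.15, chromosome 11 of GRCm38, 113244853 to 113650079, minus strand), was the most enriched. Its gene body of 405 kb was the longest of the 168. In fRIP it stood at 764, 724, 685 and 800.0 CPM in the IP and 348, 233, 322 and 375 CPM in the input. The lowest IP library was well above the highest input, and the input of replicate 4 was the lowest of its group. The log2 fold change was 1.24 (SE 0.09, adjusted p = 1.4e-10), and 1.11 without replicate 4. In UV-RIP, by contrast, the IP had 579, 582, 688 and 658 CPM and the input 533, 525, 602 and 569 CPM, overlapping ranges with a log2 fold change of 0.17 (SE 0.04, adjusted p = 2.7e-05).

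Slc25a47, a mitochondrial carrier known from liver, had 18.6, 18.5, 15.1 and 18.7 CPM in the fRIP IP and 9.69, 5.27, 8.90 and 9.32 CPM in the input, with a log2 fold change of 1.11 (SE 0.13, adjusted p = 2.0e-07). It is short for an enriched gene, at 20.8 kb. The amino acid transporter Slc43a2, at 0.85, the mitochondrial coenzyme A carrier Slc25a42, at 0.83, and Slc15a4, at 0.79, were also among the largest. In Slc25a47 the IP libraries were all above the inputs, and the input of replicate 4 was again the lowest. Slc25a42 has the lowest input mean of all 168 genes. Without replicate 4 the count of enriched genes was 10, and Slc10a7, Slc6a9, Slc8a1, Slc12a8 and Slc37a1 then lay under the fold threshold. Of the 17 depleted genes, Slc25a3, Slc25a11 and Slc7a3 did so too.

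Slc25a5 (ENSMUSG00000016319.3, chromosome X of GRCm38, 36795651 to 36798807, plus strand) was the most depleted in fRIP, at 49.7, 63.6, 54.5 and 56.7 CPM in the IP and 95.4, 143, 118 and 116 CPM in the input. Each IP library was below each input, and the log2 fold change was -1.07 (SE 0.08, adjusted p = 3.1e-10). The lactate and pyruvate carrier Slc16a1 (ENSMUSG00000032902.1, chromosome 3 of GRCm38, 104638668 to 104658462, plus strand) had 57.9, 52.3, 49.1 and 55.5 CPM in the IP and 109, 128, 105 and 104 CPM in the input. Here too the groups were apart, with a log2 fold change of -1.05 (SE 0.08, adjusted p = 9.2e-10). Both RNAs fell in UV-RIP as well on the scale of total UMIs, by log2 changes of -0.21 and -0.33, where TMM gave -0.03 and -0.15 and Slc25a5 no longer passed the test, nor did Slc16a1 with the GC trend removed, at an adjusted p of 0.279 in edgeR's test. Slc25a4, the other abundant ADP/ATP carrier, at -0.83, the zinc importers Slc39a10, at -0.79, and Slc39a4, at -0.79, and Slc35a5, of the nucleotide sugar transporter family, at -0.79, were the next most depleted. The authors discarded reads that did not map uniquely, so reads shared with near-identical copies of a gene are missing from all libraries. Other genes cover 21.6% of the Slc16a1 gene body, so its count can also lack reads that fell in the overlap.

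**Figure D2:**
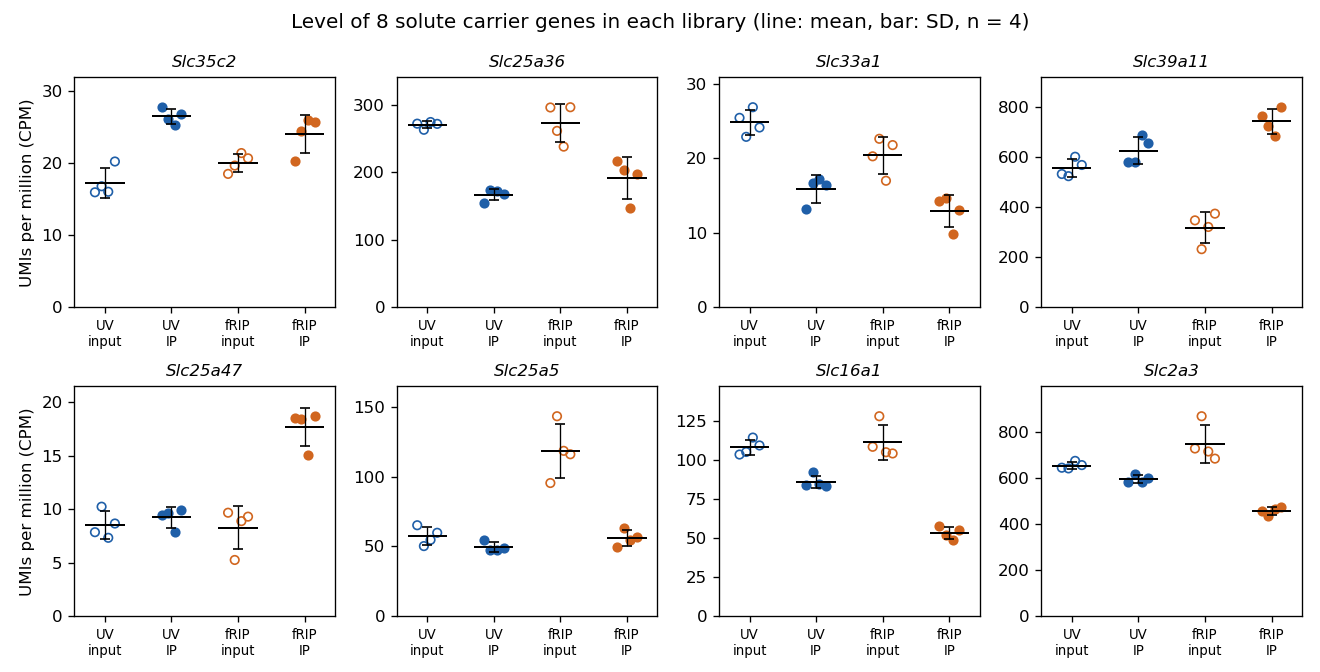
Level of 8 solute carrier genes in CPM (vertical axis) in each of the 16 libraries, with UV-RIP in blue and fRIP in orange, inputs as open and IPs as filled points, and the mean and SD of 4 libraries in black. Slc39a11 and Slc25a47 are raised in the fRIP IP, Slc25a5, Slc16a1 and Slc2a3 are lowered there, and Slc35c2 is raised in the UV-RIP IP.

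Enrichment in fRIP went with the length of the gene body. Across the 168 genes the Spearman correlation between the log2 fold change and the length was 0.50, and across the 9627 protein-coding genes at the same floor 0.60. With the share of the gene body that is exonic it was -0.45. Among the 42 shortest genes, up to 14.1 kb, 0 were enriched and 10 depleted, with a median of -0.19, and among the 42 longest, from 54.0 kb, 9 were enriched and 2 depleted, with a median of 0.40. The 2 long depleted genes were the glucose transporter Slc2a3, of 73.8 kb, and Slc39a10, of 85.3 kb, named after their values were seen. GC content and length are themselves related among these genes, with a Spearman correlation of -0.44. After removal of the length trend over all genes tested, 7 genes were past the threshold upwards and 15 downwards, and Slc39a11 had a log2 fold change of 0.80.

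Only Slc33a1 (ENSMUSG00000027822.16, chromosome 3 of GRCm38, 63933507 to 63964768, minus strand) passed the thresholds with both crosslinkers. In UV-RIP it had 13.2, 16.7, 17.3 and 16.4 CPM in the IP and 25.4, 22.9, 26.9 and 24.2 CPM in the input. In fRIP it had 14.3, 14.6, 9.85 and 13.1 CPM in the IP and 20.3, 22.6, 17.005 and 21.8 CPM in the input, with a log2 fold change of -0.66 (SE 0.10, adjusted p = 4.5e-06). The IP lay below the input in all 8 pairs, which for the UV-RIP pairs was a condition for being named among the depleted genes. With TMM no gene passed the thresholds with both. At any fold 15 genes rose with both crosslinkers, 35 fell with both, 4 fell in UV-RIP and rose in fRIP, and 0 did the opposite. These were 8.93%, 20.8%, 2.38% and 0 of the 168 genes, against 5.24%, 15.3%, 2.71% and 0.131% of all genes tested and 10%, 32.2%, 5.05% and 0.291% of the protein-coding genes at the same floor. With TMM the counts were 36, 14, 2 and 5, and the shares of 21.4%, 8.33%, 1.19% and 2.98% compare with 20.5%, 19.4%, 1.39% and 2.86% at the same floor. Across the 168 genes the log2 fold changes of both crosslinkers, which share no library, had a Spearman correlation of 0.54, beside 0.65 over the protein-coding genes at the same floor.

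**Figure D3:**
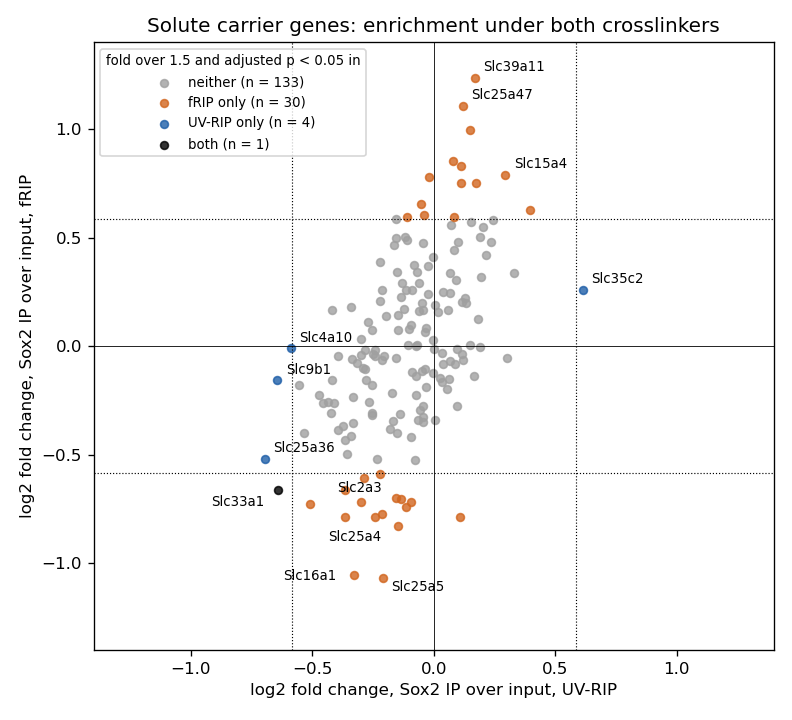
The log2 fold change of IP over input in UV-RIP (horizontal axis) against that in fRIP (vertical axis) for 168 solute carrier genes, with dotted lines at a fold of 1.5. Of these 133 passed the thresholds with neither crosslinker, 30 in fRIP alone, 4 in UV-RIP alone and 1, Slc33a1, in both, and the points spread further along the fRIP axis.

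Whether the ratio of IP to input depended on the crosslinker was tested as an interaction in 1 fit of the 16 libraries. The ratio of IP to input was higher in fRIP than in UV-RIP for 51 genes (30.4%, against 18.6% of all genes tested) and lower for 26 (15.5%, against 8.07%) at an adjusted p below 0.05. Of the protein-coding genes at the same floor 32.9% were higher and 16.8% lower, shares close to those of the solute carrier genes. With TMM these counts were 36 and 39, with the length trend removed 13 and 39, and without the replicate block 40 and 15. Without replicate 3 the lower count was 15. Among the largest differences were those of Slc39a11, at 1.07 (SE 0.10, adjusted p = 2.4e-08), Slc25a47, at 0.98, and the Golgi exchanger Slc9a8, at 0.80. Slc9a8 did not pass the test in UV-RIP, at -0.02 (SE 0.04, adjusted p = 0.77), where TMM gave 0.16 and passed it, and rose in fRIP, at 0.78 (SE 0.08, adjusted p = 2.0e-08). In the other direction came Slc39a4, at -0.89 (SE 0.11, adjusted p = 1.6e-06), Slc25a5, at -0.86, Slc16a1, at -0.73, and Slc25a4, at -0.68. The difference was higher for 30 of the 42 longest genes and for 1 of the 42 shortest, and its Spearman correlation with length was 0.64.

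By transported solute, the 17 metal carriers had the lowest fRIP median, -0.32. Of these 5 were depleted, all of them zinc carriers, namely the importers Slc39a10, Slc39a4 and Slc39a1 (-0.72) and the exporters Slc30a1 (-0.72) and Slc30a4 (-0.70). The group also held the most enriched gene, the zinc transporter Slc39a11. At any fold 11 fell and 3 rose, and the exporter family Slc30 alone had 6 of 7 genes falling and 0 rising, or 4 and 0 with TMM. The family Slc39 had 4 of 7 falling and 2 rising, with a lower median than Slc30, at -0.53 against -0.34. Of the protein-coding genes at the same floor 40.4% fell and 27.3% rose at any fold, and 16.4% were depleted and 10.2% enriched. Of the 5 depleted zinc carriers, Slc30a1 and Slc39a1 were under the fold threshold with the length trend removed, at -0.58 and -0.57, and Slc30a4 and Slc39a10 with the GC trend removed, at -0.51 and -0.56. In UV-RIP none of the 17 passed the fold threshold, with 6 falling, 2 rising and a median of -0.08, which TMM turned to 2 falling, 5 rising and 0.10.

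The 33 genes of the SLC25 family, grouped here as mitochondrial carriers, had 2 enriched and 5 depleted genes in fRIP. Of the protein-coding genes at the same floor 10.2% were enriched and 16.4% depleted. The fRIP median of the 33 genes was -0.05. The depleted ones were Slc25a5, Slc25a4, Slc25a3, the oxoglutarate carrier Slc25a11 and Slc25a46, which acts in mitochondrial dynamics and is named here after its value was seen. Slc25a3 was at -0.59 (SE 0.07, adjusted p = 5.8e-07), Slc25a11 at -0.61 (SE 0.10, adjusted p = 1.8e-05) and Slc25a46 at -0.73. Slc25a3 and Slc25a11 dropped under the fold threshold with TMM, at -0.54 and -0.56, and without replicate 4, at -0.57 and -0.47, and Slc25a3 also without replicate 3 or 5. With the length trend removed they were at -0.47 and -0.43, and with the GC trend removed Slc25a46 was at -0.58, all under the fold threshold. In UV-RIP 17 of the 33 fell at any fold and 1 rose, with a median of -0.16, whereas TMM gave 6, 10 and 0.02. On the scale of total UMIs 55.0% of the protein-coding genes at the same floor fell in UV-RIP, a share close to that of the mitochondrial carriers and of the group that follows. The 23 genes for nucleosides and nucleotide sugars had the lowest UV-RIP median, -0.25, with 14 falling at any fold and 1, Slc35c2, rising, which TMM turned to 6 falling and 7 rising with a median of -0.07. In fRIP 0 of them were enriched and 2 were depleted, Slc35a5 and the endoplasmic reticulum carrier Slc35b1 (-0.66). Slc35a5 was under the fold threshold with the GC trend removed, at -0.50, and Slc35b1 with the length trend removed, at -0.53.

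Carriers of inorganic ions and of acid and base equivalents, 25 genes, stood at a fRIP median of 0.20, with 4 enriched (among them Slc9a8, the sodium/calcium exchanger Slc8a1 and Slc12a8) and 0 depleted. To be set beside these counts and those of the amino acid carriers, 10.2% of protein-coding genes at the same floor were enriched and 16.4% depleted in fRIP. Slc8a1 and Slc12a8 were under the fold threshold with the length trend removed, at 0.21 and 0.27, as was Slc6a9 among the amino acid carriers below. In UV-RIP 0 of the 25 were enriched and 2 depleted, Slc9b1 and Slc4a10, against 0.499% and 6.19% at the same floor. The UV-RIP median of the 25 was -0.04, or 0.14 with TMM. The sodium, potassium and chloride cotransporter Slc12a2, among these, fell in fRIP at -0.42 (SE 0.08, adjusted p = 1.0e-04), and Slc20a1 at -0.40 (SE 0.07, adjusted p = 8.8e-05). Of 30 carriers of amino acids and peptides 3 were enriched in fRIP (Slc43a2, Slc15a4 and Slc6a9) and 2 depleted (Slc38a2 and the cationic amino acid transporter Slc7a3, at -0.74, or -0.58 without replicate 4), with a median of 0.11, while in UV-RIP none passed the fold threshold and the median was -0.07, or 0.11 with TMM. The gene groups differed in length as well, with a median gene body of 54.47 kb for the ion carriers, 43.16 kb for the amino acid carriers and 19.13 kb for the nucleotide sugar group, and the part of length in the group medians was not tested.

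Within the amino acid carriers of a growing stem cell, Slc38a2 was at 144 ± 6.81 CPM in the fRIP IP and 247 ± 21.99 CPM in the input (SD, n = 4 each), a log2 fold change of -0.78 (SE 0.08, adjusted p = 1.6e-08). Slc3a2, the heavy chain shared by several amino acid exchangers, fell by less, at -0.52 (SE 0.08, adjusted p = 4.5e-06), and the glutamine transporter Slc1a5 at -0.23 (SE 0.07, adjusted p = 0.017). Slc1a5 no longer passed the test without replicate 3, 5 or 6, without the replicate block or with the length trend removed, with adjusted p-values of 0.149, 0.0549, 0.126, 0.0625 and 0.0525 from the same edgeR test. The light chain Slc7a5 did not pass either test on total UMIs with all replicates, at 0.03 (SE 0.04, adjusted p = 0.64) in UV-RIP and -0.03 (SE 0.08, adjusted p = 0.82) in fRIP. In edgeR's test it passed in UV-RIP with TMM, at 0.21 (adjusted p = 1.0e-07), and in fRIP without replicate 4, at -0.15 (adjusted p = 0.011). Another annotated gene covers the whole of its body, so its count is uncertain. The cystine transporter Slc7a11, with a mean of 18.6 input UMIs, lay below the floor.

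The 9 sugar and sodium-coupled carriers had the highest fRIP median, 0.26, with 2 enriched, the glucose 6-phosphate exchanger Slc37a1 (0.59) and Slc45a4 (0.75), and 1 depleted. With the length trend removed both enriched genes were under the fold threshold, Slc37a1 at 0.45 and Slc45a4 at 0.56. At the same floor 10.2% of protein-coding genes were enriched and 16.4% depleted in fRIP. The depleted sugar carrier was Slc2a3, the most counted of the 168, with 457, 437, 467 and 476 CPM in the fRIP IP and 729, 869, 716 and 685 CPM in the input. The groups were clearly separate and the log2 fold change was -0.70 (SE 0.08, adjusted p = 1.3e-07). The related glucose transporter Slc2a1 did not pass the test in fRIP, at -0.06 (SE 0.07, adjusted p = 0.56), and in UV-RIP was at 0.12 (SE 0.04, adjusted p = 0.01), a test not passed without replicate 4 or 6 or without the replicate block, at adjusted p-values of 0.0699, 0.0983 and 0.0522. Other genes cover 17.1% of the Slc2a1 gene body.

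Among the 20 carriers of vitamins, lipids and organic ions 2 were enriched in fRIP, Slc22a23 (0.75) and Slc10a7 (0.66), with gene bodies of 166 and 225 kb, and 1 was depleted, Slc33a1. With the length trend removed neither was past the fold threshold, Slc22a23 at 0.41 and Slc10a7 at 0.28, and with the GC trend removed Slc33a1 was at -0.45. At the same floor 10.2% of protein-coding genes were enriched and 16.4% depleted in fRIP. Slc19a1, the folate carrier, rose in fRIP at 0.58 (SE 0.09, adjusted p = 9.2e-06), just under the fold threshold, and was past it with TMM, at 0.63, and without replicate 4 or 6, at 0.61 and 0.60. Of the 7 genes of the monocarboxylate family Slc16, Slc16a1 was the only one depleted and 0 were enriched. The nucleoside transporters Slc29a1, at -0.15 (SE 0.07, adjusted p = 0.13), and Slc29a4, at 0.13 (SE 0.11, adjusted p = 0.43), did not pass the test in fRIP with all replicates. Without replicate 4 Slc29a1 passed it, at -0.14 (adjusted p = 0.024 in edgeR's test). Other genes cover 15.7% of the Slc29a1 gene body. The 4 genes that carry an Slc symbol but encode adaptor or binding proteins passed the fold threshold with neither crosslinker.

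**Figure D4:**
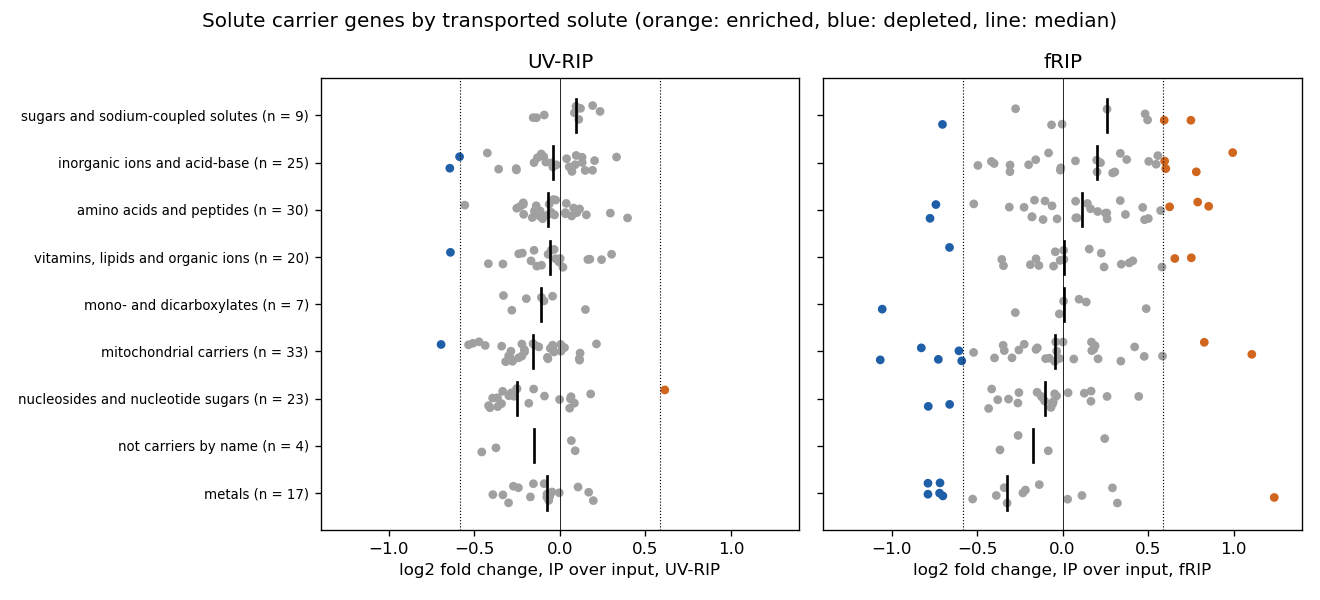
The log2 fold change of IP over input for each of 168 solute carrier genes, grouped by transported solute, in UV-RIP (left) and fRIP (right), with enriched genes in orange, depleted genes in blue, the median of each group as a black line and dotted lines at a fold of 1.5. In fRIP the metal carriers have the lowest median, -0.32, and the sugar carriers the highest, 0.26.

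The inputs of both crosslinkers were also compared, to measure how far the starting material differed. The genes were chosen on the mean of these same 8 inputs, so a gene high with 1 crosslinker alone could pass the floor through it. The counts of this comparison are therefore a description. The summed stem cell markers were at 3862.5 to 4688.5 CPM in the fRIP inputs and 2438.0 to 2604.5 CPM in the UV-RIP inputs, and their part in these results was not tested. Without the block, 12 solute carrier genes were higher in the fRIP input than in the UV-RIP input (7.14%, against 10.6% of all genes tested) and 15 lower (8.93%, against 9.44%), past the same thresholds. With library sizes that leave out Gm26917 and Gm42418 these counts were 6 and 22. At any fold 34 were higher (20.2%, against 20.2%) and 48 lower (28.6%, against 17%). The 34 were 22 without replicate 5 and with the GC trend removed, and with library sizes that leave out Gm26917 and Gm42418 the counts were 22 and 69. Of the protein-coding genes at the same floor 35% were higher and 21.3% lower at any fold, and 13.9% and 5.93% past the fold threshold. Slc25a4 was at 58.7 ± 9.26 CPM in the fRIP input and 27.3 ± 0.92 CPM in the UV-RIP input (SD, n = 4 each), a log2 difference of 1.10 (SE 0.10, adjusted p = 6.8e-07). Slc25a5 at 1.04, Slc6a9 at 0.89 and Slc25a11 at 0.79 followed. The zinc and iron importer Slc39a14 was at 23.7 ± 3.32 CPM in the fRIP input and 49.3 ± 3.48 CPM in the UV-RIP input (SD, n = 4 each), a log2 difference of -1.05 (SE 0.10, adjusted p = 9.1e-07), and the lipid-related gene Slc27a2 at -1.04, Slc4a10 at -0.98 and the cationic amino acid transporter Slc7a2 at -0.91 were next. Of the 42 shortest genes 8 were higher and 1 lower, and of the 42 longest 1 was higher and 9 lower.

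The fRIP input libraries enter both this comparison and the fRIP fold change, so a gene high in them tends to be higher here and lower there. For Slc25a5 the 4 fRIP IP libraries, at 49.7, 63.6, 54.5 and 56.7 CPM, overlapped the UV-RIP inputs, at 65.2, 50.3, 54.7 and 59.8 CPM, whereas the fRIP inputs alone were higher. In bulk RNA, fewer cells with a transcript and less of it per cell cannot be told apart.

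Other genes of membrane transport and genes of the amino acid response, from lists drawn up by gene symbol, were set beside the solute carriers at the same floor of 100 input UMIs. At that floor 10.2% of protein-coding genes were enriched and 16.4% depleted in fRIP, and 0.499% and 6.19% in UV-RIP. Of 23 ABC transporter genes 4 were enriched and 1 depleted in fRIP, with a median log2 fold change of 0.05, and in UV-RIP 2 were enriched and 0 depleted, with a median of -0.03. Of 25 genes of the ion-pumping ATPases 0 were enriched and 9 depleted in fRIP, with a median of -0.37, and in UV-RIP 0 and 1, with a median of -0.16. The 3 Slco genes at that floor, which encode organic anion transporters, were past the fold threshold with neither crosslinker. The amino acid response raises amino acid transporter expression when amino acids are short, and most of its listed genes encode enzymes and regulators. Of 7 at the floor 0 were enriched and 2 depleted in fRIP, with a median of -0.45, and in UV-RIP 0 of either, with a median of -0.14. All 7 were higher in the fRIP input than in the UV-RIP input past the fold threshold, with a median log2 difference of 1.22, where the median of the solute carrier genes was -0.04. Past that threshold 13.9% of the protein-coding genes at the same floor were higher. Without the floor 10 of the 12 tested genes of this list were, whereas Ddit3 (0.26) and Vldlr (0.37) did not pass the test. Without the floor the lists held 43, 38, 12 and 12 tested genes, of which 4, 1, 2 and 0 were enriched and 2, 10, 0 and 4 depleted in fRIP, and 2, 1, 0 and 0 enriched and 4, 1, 1 and 0 depleted in UV-RIP. Over all genes tested 8.8% were enriched and 10.7% depleted in fRIP, and 0.68% and 5.53% in UV-RIP.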

How the data were processed

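RNA from 4 Sox2 IP and 4 input libraries for each crosslinker was measured in male mESC. The authors mapped paired reads with STAR to the mouse genome (mm10 in the submitters' processing notes), kept reads with a single position, and deposited counts, not normalized, of the UMIs on each gene body of GENCODE vM16. Tool versions and the strand setting are not given in the sources used here, so overlapping and antisense genes cannot be told apart.

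For these counts the quasi-likelihood test of edgeR 4.0.16 (R 4.3.3) was used. The contrast of IP and input had the replicate number as a block and total UMIs as library size, and took in 22936 genes that reached 3 UMIs in any of the 16 libraries, with Benjamini-Hochberg adjustment. The difference between crosslinkers was an interaction term with the plate as a block, and the inputs were compared without a block. CPM is UMIs scaled to a library total of 1000000. DESeq2 1.42.0 served for alternatives. Each IP and its input come from 1 lysate by the study's methods, and their deviations from the group means had correlations of 0.11 to 0.60 in fRIP and 0.03 to 0.44 in UV-RIP. Replicates came from separate plates of the same kind of cells, so p-values cover the spread between plates. All pairs of replicates differed beyond sampling noise, the lowest ratio of chi-square to its degrees of freedom being 1.52.

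The members and the lists were chosen with earlier results of these data known. Named genes were the 6 largest changes in each direction and crosslinker among genes whose 4 pairs had 1 sign, filled where fewer passed the fold threshold, the 4 largest differences between crosslinkers and between inputs in each direction, the 5 highest input levels per kb, a list of well-known transporters, and genes at the floor. Some genes that the rule names are not reported here. The other called genes of a solute group were named after their values were seen, and Slc4a1ap was moved to the genes that are not carriers after the files were read. Coordinates, coding sequences and overlaps are from GENCODE vM21 on GRCm38. All 168 genes matched by identifier, 144 of them with the same version, and only those have coordinates here. The fits were first tested on simulated data.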

Additional observations from a re-analysis of the deposited data

Results flagged for a closer look

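In 6 of 82 sets of 4 values looked at, 1 library lay far from the rest, where chance alone gives about 1 in 20 such sets. In fRIP the library was replicate 4 each time. On the log2 ratio of IP to input, Slc1a5 was at -0.12 there and between -0.28 and -0.25 in the other 3, Slc25a39 was at -0.12 there and between -0.45 and -0.40 in the other 3 and Slc39a11 was at 1.64 there and between 1.09 and 1.13 in the other 3. In the same way, Slc39a4 was at -1.07 there and between -0.70 and -0.67 in the other 3 and Slc43a2 was at 1.49 there and between 0.62 and 0.69 in the other 3. In UV-RIP, Slc25a3 in replicate 4 was at -0.06 with the others between -0.29 and -0.26. The fRIP input of replicate 4 also had 2.814% of its UMIs on the misc_RNA class, and the part of that in these ratios was not tested. Without replicate 4 the fRIP log2 fold changes were 1.11 for Slc39a11, 0.66 for Slc43a2, -0.69 for Slc39a4, -0.42 for Slc25a39 and -0.26 for Slc1a5, in the same direction as with it.

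The log2 fold change differed between the crosslinkers, at an adjusted p below 0.05 in the edgeR interaction test, for the named genes that follow, some of them chosen for this difference. Over the 168 genes the ratio was higher in fRIP for 51 and lower for 26, against 32.9% and 16.8% of the protein-coding genes at the same floor. These counts were 36 and 39 with TMM, and 13 and 39 with the length trend removed. The fRIP change minus the UV-RIP change was above 0 for Slc39a11 at 1.07, Slc25a47 at 0.98, Slc9a8 at 0.80, Slc43a2 at 0.77, Slc25a42 at 0.71, Slc4a10 at 0.58, Slc15a4 at 0.50, Slc9b1 at 0.49, Slc7a2 at 0.47, Slc6a15 at 0.38, Slc39a14 at 0.35 and Slc19a1 at 0.34. It was below 0 for Slc39a4 at -0.89, Slc25a5 at -0.86, Slc16a1 at -0.73, Slc25a4 at -0.68, Slc2a3 at -0.57, Slc38a2 at -0.56, Slc39a10 at -0.54, Slc35a5 at -0.42, Slc25a3 at -0.37, Slc35c2 at -0.36, Slc27a3 at -0.36, Slc12a2 at -0.32, Slc25a39 at -0.30, Slc3a2 at -0.29, Slc20a1 at -0.25 and Slc29a1 at -0.21.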

How the results depend on the processing

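Total UMIs as library size set the UV-RIP scale. The count of 4 genes depleted in UV-RIP was 0 with TMM, with DESeq2 at median-of-ratios size factors, with library sizes without Gm26917 and Gm42418, and with the gene-length or coding GC trend removed. The median in UV-RIP, -0.092, was then 0.089, 0.082, 0.062, 0.047 and 0.034. The 51 genes with a higher ratio in fRIP were 30 with DESeq2 at median-of-ratios size factors and 13 with the length trend removed, and the 26 with a lower ratio were 40 with library sizes without Gm26917 and Gm42418. The 14 genes enriched in fRIP were 7 with the length trend removed. The 12 genes higher in the fRIP input were 6 with library sizes without Gm26917 and Gm42418 and 7 with the GC trend removed, and the 15 lower were 8 with the length trend removed. The GC trend was added after seeing the data.

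The fit without the replicate block gave 15 genes with a lower ratio in fRIP, in place of 26, and 12 that rose in UV-RIP at any fold, in place of 21. Inputs of the same number did not deviate together across crosslinkers (correlations of -0.27 to -0.07), and with the replicate block 12 genes were higher in the fRIP input and 16 lower. With each replicate left out, the genes enriched in UV-RIP numbered 0 to 1 and those with a lower ratio in fRIP 15 to 29.

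Of 78 log2 fold changes of named genes, these in UV-RIP took the other sign where either fit passed the test: with coding GC trend removed Slc12a2 at 0.145, Slc20a1 at 0.082, Slc2a3 at 0.027, Slc35a5 at 0.005, Slc38a2 at 0.037, Slc39a10 at 0.071 and Slc9a8 at 0.168. With TMM scaling Slc1a5 at 0.108, Slc20a1 at 0.03, Slc25a39 at 0.136, Slc2a3 at 0.045 and Slc9a8 at 0.161. With DESeq2 with median-of-ratios size factors Slc20a1 at 0.022, Slc2a3 at 0.036 and Slc9a8 at 0.152. With library sizes without Gm26917 and Gm42418 Slc20a1 at 0.002, Slc25a39 at 0.108, Slc2a3 at 0.017 and Slc9a8 at 0.133. With gene-length trend removed Slc20a1 at 0.008, Slc25a39 at 0.127 and Slc9a8 at 0.119. Of the 78, 15 changed sign under some alternative without passing the test in either fit. Depth limits the genes near 100 UMIs most.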
